A study of Mus musculus with 12 samples.

Results

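Cxcl14 is a small secreted chemokine of the CXC family, and its footprints were followed here well by well through mouse back-skin epidermis. It is 1 of 22416 genes in the count tables, gene ID 57266, a protein-coding gene that spans 56288643 to 56296811 on chromosome 13 of GRCm38, a span of 8169 bases. The gene was taken up because its level had differed between old and young animals in an earlier look at these counts. The difference between the ages is therefore given as a description, with no test.

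Most chemokines are switched on by inflammation, whereas Cxcl14 is made constitutively by resting epithelia, the epidermis among them. The secreted protein attracts monocytes and precursors of dendritic cells and kills bacteria in vitro. It has no single agreed signalling receptor, and it is known to modulate signalling by Cxcl12 through Cxcr4. In skin it belongs to the steady-state signals between keratinocytes and resident immune cells.

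The method was single-cell ribosome profiling, which counts the stretches of mRNA shielded by ribosomes from nuclease. All animals were female C57BL/6 mice that received cycloheximide, a translation inhibitor, through the tail vein before the epidermis was taken off with trypsin, and live single cells were sorted into 384-well plates. Animals are named by their postnatal day. The young ones, about 2 months of age, were P57 (plate Young10), P59 (Young8) and P60 (Young1, Young3 and Young9). The old ones were P662 (Old7 and Old11), P722 (Old12) and P758 (Old2 and Old4). The labels name no animals, and plates that share an age and a day were assumed to come from 1 animal, which gives 3 animals per age on 10 plates. A nuclease test plate with wells from P758 and a plate of Sca-1-negative cells of both ages were kept apart. No matched mRNA counts were used, so a level joins the abundance of the mRNA with its translation.

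Depth differed widely between animals and limits every comparison of the ages. Of 1924 wells, 1906 had at least 100 counts and were kept. P60 gave 2384294 counts from 981 wells and P758 gave 896688 from 627. The other 4 animals gave 5230 (P57), 12371 (P59), 12886 (P722) and 70549 (P662) counts, from 13 to 199 wells each. All 11 basal keratinocyte markers were present in every animal, at a summed level of 22562 to 72559 footprints per 1000000 counts (CPM). Fibroblast markers summed to between 0 and 162 CPM per animal, and endothelial markers to at most 5.58 CPM, so that the preparation matched its label of epidermis. The well barcodes are reused between plates: 383 of 384 occur on more than one plate, and they mark positions rather than cells.

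Cxcl14 was counted in every one of the 10 plates. There were 1568 Cxcl14 counts in 488 wells, and P60 held 1327 of them and P758 held 223. The 4 shallow animals held 11 (P662), 2 (P722), 1 (P57) and 4 (P59) counts. In P57 a single count weighed 191 CPM, against 0.419 CPM in P60. The levels of the shallow animals are therefore known only within wide intervals. Those of P57 (4.84 to 1065 CPM) and P722 (18.8 to 561 CPM) reach below 77.2 CPM, the level of T cell-like wells, which rests on 4 counts.

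Among young plates, Cxcl14 stood at 597 CPM in Young1, 529 CPM in Young3 and 519 CPM in Young9, all from P60. Young10 had 191 CPM and Young8 had 323 CPM, from 1 and 4 counts. Among old plates it stood at 249 CPM in Old2 and 248 CPM in Old4, both from P758. The plates Old7, Old11 and Old12 had 139, 163 and 155 CPM. Both plates of P758 lay below all 3 plates of P60, and their exact 95% Poisson intervals (201 to 306 and 208 to 294 CPM) did not meet those of P60, the lowest of which began at 453 CPM. These intervals cover counting error only, and whether the deposited counts were collapsed to single molecules is not stated, so that copies of 1 footprint made by PCR may be among them. The 2 shallow young plates overlapped the old ones.

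**Figure D1:**
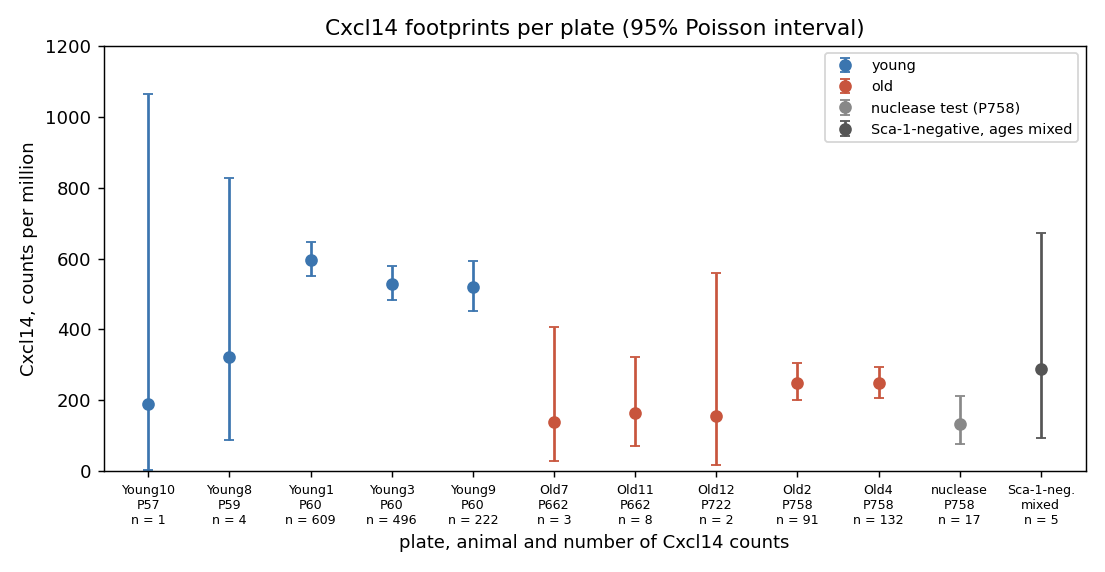
Cxcl14 in CPM (vertical axis) for each plate (horizontal axis, with the animal and the number n of Cxcl14 counts below it), with exact 95% Poisson intervals; blue marks young plates, red old plates and grey the nuclease test and Sca-1-negative plates. The 3 plates of P60 sit at 519 to 597 CPM and the 2 of P758 at 248 and 249 CPM, and the intervals of the shallow plates are wide, those of Old7 (28.7 to 407 CPM) and Old11 (70.5 to 322 CPM) ending below the levels of P60.

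By animal, the level was 156 CPM in P662, 155 CPM in P722 and 249 CPM in P758, a mean of 187 ± 53.8 CPM (SD, n = 3). In young animals it was 191 CPM in P57, 323 CPM in P59 and 557 CPM in P60, a mean of 357 ± 185 CPM (SD, n = 3). P57 lay between the old animals, so the groups overlapped. The fitted log2 difference of old over young was -1.16 (SE 0.334, derived from the F statistic), from edgeR's quasi-likelihood fit over animals. DESeq2 gave -1.07 with a wider SE of 0.731, and the SD between animals of an age was 0.611 on the log2 scale. In that fit 0 genes were called at an adjusted p of 0.05, or 0% of those tested. At an unadjusted p under 0.05 there were 25, and DESeq2 called 0 genes with 6 at that level. Both 25 and 6 were fewer than that threshold alone would pass by chance among the genes tested, so neither count points to an age effect. The gap rests on P60 against P758. Without the deep animals, the young pair P57 and P59 pooled had 284 CPM (exact 95% Poisson interval 92.2 to 663, 5 counts) and the old pair P662 and P722 had 156 CPM (83.0 to 266, 13 counts), and these intervals overlapped.

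The share of wells with a Cxcl14 count was highest in the 2 deep animals. Among the 4 shallow ones it did not follow the median depth per well. The share was 36.1% in P60 and 18.7% in P758, against 5.03% in P662, 5.26% in P722, 7.69% in P57 and 8.33% in P59. After each well was thinned to 100 counts the expected share was 4.25% in P60, 3.18% in P59 and 4.11% in P57. In old animals it was 2.86% in P758, 2.22% in P662 and 1.06% in P722. The means were 3.85 ± 0.581% in young and 2.04 ± 0.909% in old animals (SD, n = 3 each), and no old animal reached the lowest young one. The young order is carried by 1 and 4 positive wells in P57 and P59. With wells thinned to 500 counts instead, the order turned, at 9.43 ± 4.65% in old and 6.17 ± 10.7% in young animals. P57 and P59 then kept 4 and 3 wells, none with a Cxcl14 count, and P722 kept 7.

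Within the deep animals the counts were far from even. In P60, 627 wells had no Cxcl14 count, 144 had 1, 126 had 2 to 4 and 84 had 5 or more. Counts spread evenly by depth would leave 449 wells of P60 without one. The 84 wells with 5 or more made up 8.56% of the wells and held 64.1% of the counts. The richest well held 38 Cxcl14 counts out of 19134, or 1986 CPM. In P758, 510 wells had none, 81 had 1, 27 had 2 to 4 and 9 had 5 or more, and an even spread would leave 473 without one. Its richest well held 16 of 11371 counts. The 5% of wells richest in Cxcl14 counts (49 in P60, 31 in P758) held 49.2% of the gene's counts in P60 and 59.2% in P758. They had 16.0% of the depth in P60 and 9.66% in P758. These wells were picked for their Cxcl14 count, so the concentration is a description, and PCR copies may be among the counts.

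The wells that carried Cxcl14 were mostly basal. The basal layer holds the stem and progenitor cells of the epidermis and translates Krt5, Krt14 and Krt15, and the spinous layer above it translates Krt1 and Krt10. Wells were called basal where the first 3 keratins made up at least 2/3 of the counts of all 5, and spinous where they made up at most 1/3, with at least 5 keratin counts. There were 1206 basal and 371 spinous wells, 120 in between and 209 with too few keratin counts. Of the wells with 5 or more Cxcl14 counts, 82 of 84 in P60 and 9 of 9 in P758 were basal.

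Cxcl14 was higher in basal than in spinous wells of both deep animals and on each of their plates. P60 had 738 CPM in basal wells (1267 counts) and 73.5 CPM in spinous wells (33 counts). P758 had 403 CPM in basal wells (200 counts) and 19 counts out of 333454 in spinous wells. The plate values were 798 against 82.8 CPM in Young1, 695 against 74.0 CPM in Young3 and 695 against 48.2 CPM in Young9. They were 422 against 59.2 CPM in Old2 and 390 against 55.5 CPM in Old4. No spinous value of these 5 plates came near a basal one.

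The shallow animals had 5 basal and 2 spinous Cxcl14 counts in P662, 2 and 0 in P722, and 3 and 0 in P59. P57 had 0 in 6 basal wells and 1 in 3 spinous wells, and with under 5 spinous wells it did not enter the test. Over the other 5 animals, with the animal as a block, Cxcl14 was higher in basal wells by a log2 difference of 2.82 (SE 0.276, adjusted p = 1.17e-22, edgeR's quasi-likelihood test with Benjamini-Hochberg adjustment). The background is wide: 1933 of 7768 genes, or 24.9%, were called in either direction, and 987, or 12.7%, were higher in basal wells. The direction held in 5 of 5 animals, of which P722 and P59 had 2 and 3 counts in all. In the fit without P60 the difference was 2.64 and without P758 3.00, and without the outer bulge-like wells described further on it was 2.83.

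Across finer classes of keratin share the level rose with the basal share, and the 2 animals differed in where it rose most. In P60 the largest step lay within basal wells, at a share of 0.95, and in P758 it lay at 2/3. In P60 it was 73.5 CPM up to a basal share of 1/3, 160 CPM from 1/3 to 2/3, 216 CPM from 2/3 to 0.95 and 783 CPM above 0.95. In P758 the upper 3 of these classes had 68.4, 339 and 417 CPM, and the lowest had the 19 counts given above. The 2 animals had overlapping intervals in the lowest 3 classes. Above 0.95 the interval was 740 to 828 CPM in P60 and 357 to 485 CPM in P758.

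**Figure D2:**
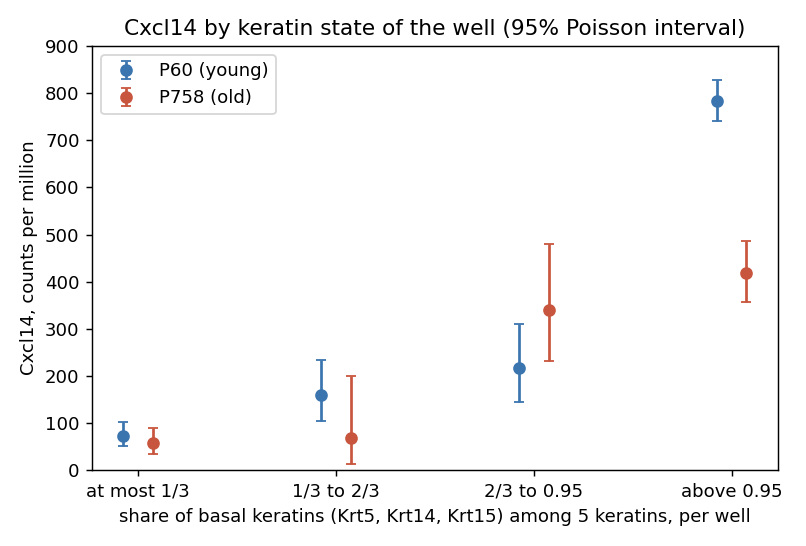
Cxcl14 in CPM (vertical axis) in wells grouped by the share of basal keratins among 5 keratins (horizontal axis), for P60 (blue) and P758 (red), with exact 95% Poisson intervals. Both animals are under 80 CPM at a share of at most 1/3, and above 0.95 P60 reaches 783 CPM and P758 417 CPM.

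The difference between the keratin states was not shown to depend on age. The fitted interaction, old minus young, was -0.55 (SE 0.710, adjusted p = 1, edgeR's quasi-likelihood test), with 4 of 7768 genes called, or 0.0515%. Among basal wells alone the fitted log2 difference of old over young was -0.55 (SE 0.905), given with no test. It moved to 0.51 without P60, to -0.92 without P57 and to -1.07 without P758. Basal wells thus gave no stable size for the age difference. Over all genes, the age fit on basal wells called 24 of 6913 with edgeR and 0 with DESeq2.

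P60 and P758 also differed in composition. Spinous markers summed to 33638 CPM in P60 and 56844 CPM in P758, and basal markers to 68750 and 50824 CPM. Over all 6 animals these markers did not follow age: young P57 had the most spinous signal, 78967 CPM, and old P722 the most basal, 72559 CPM. The keratin states leave a gap between P60 and P758 within basal wells, and that gap itself varied with the depth of the well. In basal wells of under 500 counts, P60 had 460 CPM (15 counts) and P758 had 556 CPM (14 counts), with overlapping intervals. From 500 to under 2000 counts the values were 520 CPM (454 to 593) and 365 CPM (292 to 450), and from 2000 counts on they were 819 CPM (770 to 871) and 425 CPM (345 to 517). Only in the deeper 2 classes did P60 lie above P758 with intervals that did not meet. The part of depth and of composition in the age difference was not tested.

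Clusters of wells placed Cxcl14 more finely. The 14 clusters were made without Cxcl14 among the genes, and their values are descriptions. Outer bulge-like wells (cluster 9, 95 wells, led by Cd34, Myoc and Il31ra) had the highest level over all animals, 1824 CPM (interval 1556 to 2126). These levels are pooled over animals, and P60 holds most of the counts. The outer bulge is the niche of the hair follicle stem cells, for which Cd34 and Lgr5 are the usual markers. Next in the pooled order came cluster 1, 280 wells at 972 CPM, which reached no name and is called Igfbp3-led here after Igfbp3, Il1r2 and Smoc2 among its 10 leading genes. In P758 it was not second: at 324 CPM it lay below cluster 2 (619 CPM) and cluster 7 (466 CPM), with overlapping intervals. The cluster 2 value rests on 20 counts, of which 1 well held 16, and all 20 were on plate Old4. All 11 basal markers were higher in cluster 1 than in the other wells. Its first leading gene, the melanocyte gene Dct, came from 2 of its wells, which held all 168 melanocyte marker counts of the cluster and 0 Cxcl14 counts.

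Dividing cells followed, with 749 CPM in the 30 wells led by mitosis genes and 579 CPM in the 47 wells led by replication histones. Of the basal-like clusters, cluster 7, led by the immediate early genes Nr4a1 and Atf3, had 581 CPM, and cluster 0 had 376 CPM. The neighbours 749 and 581 CPM, and 581 and 579 CPM, had overlapping intervals. The shallow wells of cluster 8, which reached no name, stood at 353 CPM, and sebaceous-like wells at 334 CPM, with 11 counts in 2 wells.

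In the remaining clusters Cxcl14 was low. Spinous-like wells had 101 CPM (interval 78.9 to 127), and the wells led by Flg and Krt79, genes of the granular layer and the upper hair follicle, had 92.2 CPM (66.5 to 125). T cell-like wells, which should lack a keratinocyte chemokine, had 77.2 CPM (21.0 to 198, 4 counts), and 6.67% of these 45 wells had a count, at a median of 588 counts per well. That level rests on few counts and is a rough reference, not a floor. With values not centred per plate, granular-like wells had 33.5 CPM (13.4 to 68.9, 7 counts). The spinous-like interval overlapped that of the T cell-like wells. The latter is too wide to decide whether spinous translation of Cxcl14 exceeded background. Langerhans-like wells had 174 CPM from 2 counts, and the unnamed clusters 10 and 11 had 59.6 and 61.9 CPM. All intervals from the Langerhans-like wells downward overlapped.

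**Figure D3:**
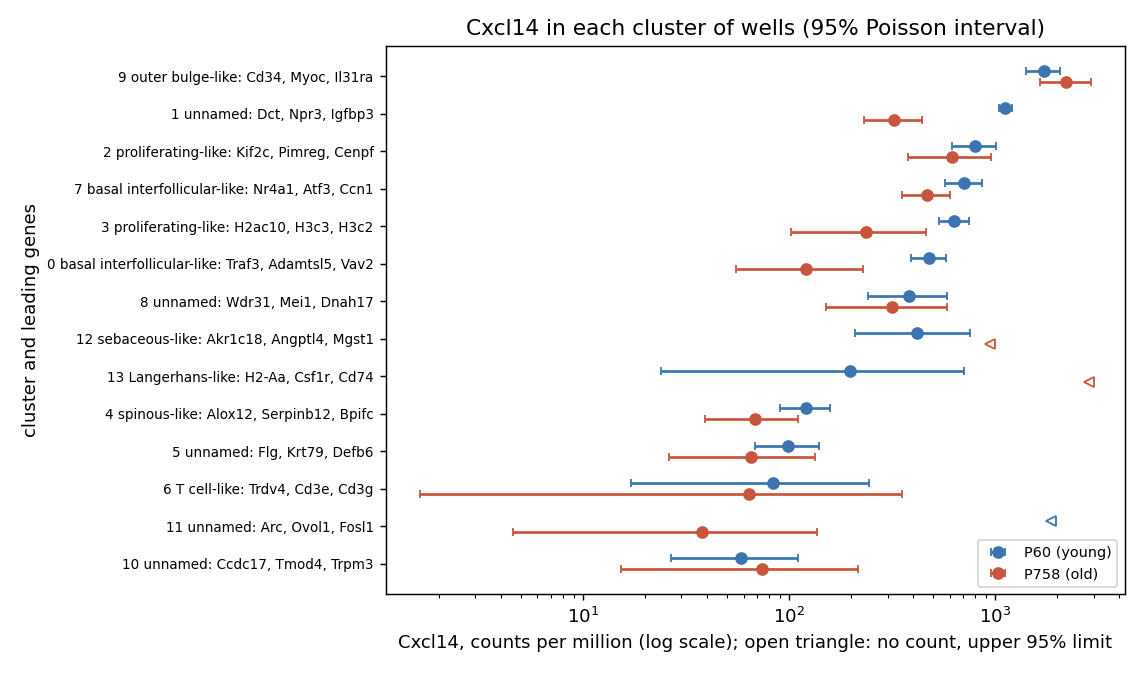
Cxcl14 in CPM (horizontal axis, log scale) for each cluster of wells (vertical axis, with its leading genes), in P60 (blue) and P758 (red), with exact 95% Poisson intervals; an open triangle marks the upper limit where no count was seen. Outer bulge-like wells are highest in both animals (1719 and 2217 CPM), whereas cluster 1 has 1121 CPM in P60 and 324 CPM in P758.

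The 2 clusters with the highest Cxcl14 level in the pooled order, and in P60, differed in how P758 compared with P60. In outer bulge-like wells P758 had 2217 CPM (interval 1650 to 2914, 51 counts in 32 wells) and P60 had 1719 CPM (1415 to 2068, 112 counts in 54 wells). The plates of P758 had 2340 CPM (Old2) and 2049 CPM (Old4), and those of P60 had 1928 CPM (Young1), 1911 CPM (Young3) and 957 CPM (Young9). Young9 was the low one, and the intervals of the 2 animals overlapped. In these wells the level in the old animal was thus not below that of the young one, a log2 ratio of 0.37.

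In Igfbp3-led wells the order was the reverse. P60 had 1121 CPM (interval 1038 to 1209) and P758 had 324 CPM (231 to 441), a log2 ratio of P758 over P60 of -1.79. The plates of P60 lay close together at 1124 CPM (Young1), 1126 CPM (Young3) and 1103 CPM (Young9). Old2 had 225 CPM and Old4 had 389 CPM, both far below. In basal-like cluster 0 the values were 477 CPM in P60 and 120 CPM in P758 (log2 ratio -1.99). In cluster 7 they were 704 CPM (interval 568 to 864) and 466 CPM (352 to 605), a ratio of -0.59 with overlapping intervals.

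These ratios set 1 animal against 1 animal, and like the age difference as a whole they are given with no test. P662 had 1 Cxcl14 count in 7 outer bulge-like wells and P722 had 0 in 2, while P57 and P59 had no such wells. In Igfbp3-led wells P662 had 137 CPM from 1 count, P722 had 369 CPM from 2 and P59 had 612 CPM from 1. P59 lay between the old animals and P60 there, on a single count. With a coarser clustering and with values not centred per plate, outer bulge-like wells had 1719 to 1752 CPM in P60 and 2217 CPM in P758. They held the same 51 counts in 32 wells of P758, and the same 112 counts of P60, each time. Their levels thus had little room to change. The Igfbp3-led wells had 1118 to 1132 CPM in P60 and 321 to 397 CPM in P758 in these 2 settings. Without centring, only 13 such wells of P758 were left, with 11 counts (interval 198 to 710 CPM).

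In the depth classes from 500 counts on, the order of the animals was the same in these 2 clusters but not in cluster 7. In Igfbp3-led wells of 500 to under 2000 counts P60 had 848 CPM and P758 had 194 CPM, and from 2000 counts on they had 1159 and 378 CPM. In outer bulge-like wells the same classes had 1344 and 1702 CPM, then 2670 and 3167 CPM. The level in the bulge-like wells was higher in the deepest class of both animals, which held 6 wells of P60 and 3 of P758. In cluster 7 wells of 500 to under 2000 counts P60 had 431 CPM and P758 had 474 CPM, so the order turned, and from 2000 counts on they had 1087 CPM in 17 wells and 425 CPM in 9.

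Other genes of the Igfbp3-led wells differed between the animals as well. Igfbp3, which binds insulin-like growth factors, had 3043 CPM in P60 and 1303 CPM in P758, and Smoc2, a matricellular protein, had 1455 and 648 CPM. The basal keratin Krt15 had 30643 and 16515 CPM. Il1r2, the decoy receptor for interleukin-1, had 623 and 615 CPM, and Krt5 had 41109 and 38065 CPM. Like Cxcl14, the genes Igfbp3, Smoc2 and Krt15 were thus lower in P758 there, and Il1r2 and Krt5 differed little. This sets 1 animal against 1 animal, for genes chosen after their values were seen, and shows no shared regulation. Whether the wells of the 2 animals are the same kind of cell was not tested. Fibroblast markers in these wells summed to 239 CPM in P60, with 7 of 7 above 0, and to 81.0 CPM in P758, with 1 of 7. Spinous markers in the same wells summed to 1982 CPM in P60 and 5796 CPM in P758, and outer bulge markers to 120 and 915 CPM. The part of these shifts in the lower Cxcl14 level of P758 was not tested.

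Outer bulge-like wells kept their own markers in both animals. Cd34 had 1212 CPM in P60 and 608 CPM in P758, and Lgr5 had 614 and 435 CPM. Postn, a matrix protein, had 7934 and 10170 CPM. Fibroblast markers summed to 460 and 695 CPM there, with Dcn, Lum and Pdgfra at 0 in both animals.

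The places with the most Cxcl14 counts follow from level and number of wells together. In P60 the Igfbp3-led wells, 17.4% of the wells, held 50.9% of the Cxcl14 counts, and outer bulge-like wells, 5.50% of the wells, held 8.44%. In P758 the Igfbp3-led wells, 10.0% of the wells, held 17.9%, and outer bulge-like wells, 5.10% of the wells, held 22.9%. Cluster 7 held 25.1% of the counts of P758 and 6.93% of those of P60. Giving each cluster its level in P758 and its share of all counts in P60 yields 259 CPM, close to the 249 CPM of P758. Levels of P60 with the shares of P758 yield 449 CPM, against 557 CPM in P60. These are sums over 1 animal each, and the part of composition was not tested by them.

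Across wells, Krt15, Col17a1 and Krt5 were the genes most like Cxcl14. Correlations (Pearson's r of normalised residuals, made per plate) were taken over 807 wells of P60 and 472 of P758 with at least 500 counts, for 751 genes, and averaged over the 2 animals. Wells share their plate and animal, so r is a description. Of the 10 most alike, 5 were on the list of basal markers. Krt15 led with 0.318 (0.337 in P60, 0.299 in P758). Col17a1, a hemidesmosomal collagen, had 0.313, Krt5 0.310, Lamb3, a chain of laminin-332, 0.308 and Itgb4, the hemidesmosomal integrin, 0.267. The median gene had -0.00483 and the 99th percentile was 0.269.

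Other genes among the first 10 were Postn (0.308), the latent TGF-beta binding protein Ltbp4 (0.280), the caveolar protein Cavin1 (0.275), the laminin receptor Bcam (0.272) and the matrix protein Tgfbi (0.262). Postn owed its place to the outer bulge-like wells: without them its mean r was -0.0156 and its rank 429. Bcam was much more like Cxcl14 in P60 (0.466) than in P758 (0.0783). The Igfbp3-led genes stood behind, with Smoc2 at 0.256 (rank 12), Il1r2 at 0.240 (rank 14) and Igfbp3 at 0.212 (rank 19). These 3 genes were also more like Cxcl14 in P60 (0.357, 0.341 and 0.332) than in P758 (0.154, 0.138 and 0.0910). The same held for Krt5, with 0.424 in P60 and 0.195 in P758. Krt14, the partner of Krt5, had only 0.143 (0.257 in P60 and 0.0285 in P758).

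Of the 5 genes most opposite to Cxcl14, 4 were on the list of spinous markers. These were Krt10 with -0.272, Krt1 with -0.254, the Notch receptor Notch3 with -0.243 and the keratin Krt77 with -0.242. The fifth, Susd2, had -0.234. All 5 were negative in both animals.

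**Figure D4:**
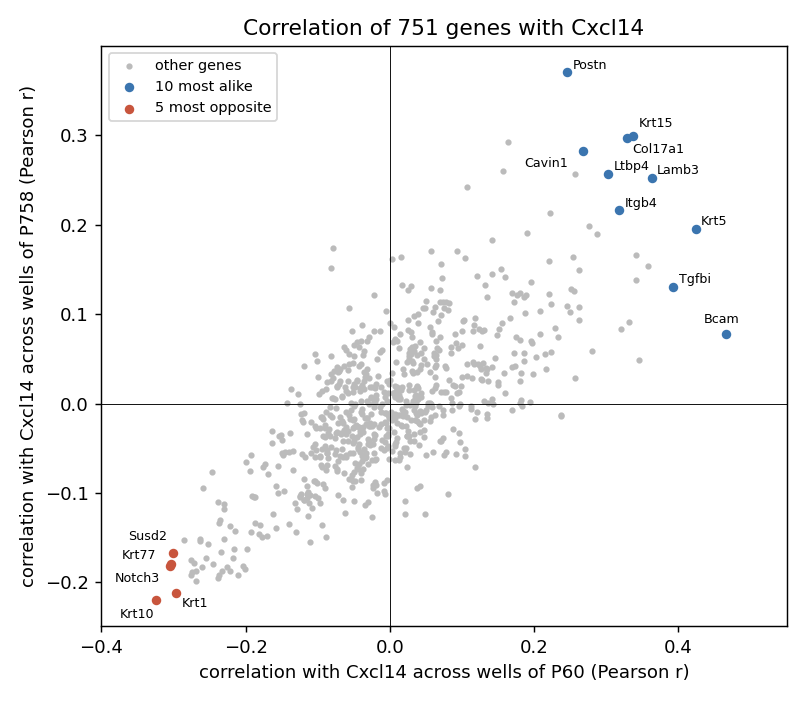
Pearson's r with Cxcl14 across wells of P60 (horizontal axis) and of P758 (vertical axis) for 751 genes, 1 point per gene, with the 10 most alike in blue and the 5 most opposite in red. Basal genes such as Krt15 and Col17a1 lie to the upper right and Krt10 and Krt1 to the lower left, and Bcam is high in P60 (0.466) and near 0.0783 in P758.

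Cxcl14 had more footprint counts than any other chemokine listed, before any correction for gene length. Of 37 other chemokines, 23 had 0 counts in P60 and P758, and 6 reached 20 counts in these animals together. Ccl27a, a skin chemokine that draws T cells through Ccr10, had 170 CPM in P60 and 84.8 CPM in P758, from 405 and 76 counts. Cxcl16 had 103 and 51 counts, and Cx3cl1, which is membrane-bound like Cxcl16, had 90 and 37. Cxcl12 had 31 and 10, and the interferon-induced Cxcl10 had 29 and 0. Xcl1 had 47 and 15 counts, and its highest level, 1178 CPM, was in the T cell-like wells.

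Of the 3 chemokines tested between keratin states, 1 was higher in basal wells and 0 in spinous wells, with a median log2 difference of 0.99. Over all 7768 genes tested, 987 were higher in basal and 946 in spinous wells, with a median of -0.03. Ccl27a was the one, with a log2 difference of 1.90 (SE 0.326, adjusted p = 7.99e-08, edgeR). Its highest level was in the wells led by Flg and Krt79, at 281 CPM, and the next in the Igfbp3-led wells, at 231 CPM. In outer bulge-like wells, where Cxcl14 peaked, Ccl27a had 55.6 CPM.

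Of 23 chemokine receptors, 5 reached 20 counts, and of 4 tested 3 were higher in basal wells and 1 in spinous wells, with a median log2 difference of 2.51. The scavenging receptors, which take up chemokines without classical signalling, made up the basal ones. Ackr4 had 481 CPM in basal and 74.0 CPM in spinous wells, a log2 difference of 2.36 (SE 0.265, adjusted p = 2.39e-17, edgeR). Ackr3, a scavenger of Cxcl12, had 466 counts in basal wells and 0 in spinous wells, at least 56.9-fold higher against a floor of 3 counts over the spinous wells. Ackr2 had 65 and 3 counts, a ratio of 7.94 (exact 95% interval 2.60 to 39.5). Ccr4 was the spinous one, by -3.74 (SE 0.411, adjusted p = 4.09e-18, edgeR). Cx3cr1 was counted in neither state, with 38 counts in P60 and P758 and its highest level, 734 CPM, in T cell-like wells.

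Cxcr4, the receptor of Cxcl12 named with Cxcl14 above, was under the 20 counts and is given because of that background. It had 9 counts in P60 and 2 in P758, all 11 in basal wells. Against the floor of 3 counts over the spinous wells this is a bound of only 1.34-fold, too little to show a restriction to basal wells.

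Ackr4 and Ackr3 both had their highest level in the Igfbp3-led wells. Ackr4 stood there at 771 CPM in P60 and 453 CPM in P758. In outer bulge-like wells it had 261 and 174 CPM, below its level in Igfbp3-led wells, whereas Cxcl14 was highest there. Ackr3 had 296 and 348 CPM in Igfbp3-led wells, and 1 and 0 counts in outer bulge-like wells. The fitted log2 difference of old over young for Ackr4 was -1.01 (SE 0.378), not called.

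Of 21 keratinocyte cytokines and alarmins, 9 reached 20 counts, and of 7 tested 3 were higher in basal and 2 in spinous wells, with a median log2 difference of 0.65. Il33, a nuclear alarmin, was higher in basal wells by 3.74 (SE 0.371, adjusted p = 3.97e-22, edgeR) and the defensin Defb6 by 2.10. Defb6 had its highest level, 733 CPM, in the wells led by Flg and Krt79, and the next, 22.2 CPM, in outer bulge-like wells. Its basal value by keratin share is thus not one of the basal-like or Igfbp3-led clusters. Il1r2 had 806 basal counts and 1 spinous count. Il34, which sustains Langerhans cells, was higher in spinous wells, at -1.92 (SE 0.260, adjusted p = 3.73e-12, edgeR), as was Csf1, at -1.17. Both were counted in basal wells too, Il34 with 134 basal and 149 spinous counts and Csf1 with 91 and 58. Il33 and Il1r2 both had 0 CPM in outer bulge-like wells, where Cxcl14 had its highest level.

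All 3 genes of the Igfbp3 program, a list drawn from these same data, were higher in basal wells. Igfbp3 was higher by 1.52 (SE 0.256) and Smoc2 by 4.93 (SE 0.348), and Il1r2 had the counts given above. Between the ages their fitted log2 differences were -0.54 (SE 0.849) for Igfbp3, -0.99 (SE 0.458) for Smoc2 and -0.08 (SE 0.703) for Il1r2, none of them called.

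Wells with a Cxcl14 count differed from those without in the marker lists, and in depth as well. Basal markers summed to 85862 CPM in the wells with Cxcl14 and to 41193 CPM in those without, and spinous markers to 22512 and 58231 CPM. T cell markers summed to 183 and 819 CPM, and proliferation markers to 3522 and 430 CPM. Deep wells are more likely to show a count, so these sums are values of the counted wells and not of a cell type.

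The 2 plates kept apart also held Cxcl14 counts. Their intervals overlapped that of the T cell-like wells (21.0 to 198 CPM), which rests on 4 counts and so does not decide whether they exceeded background. The nuclease test plate, with 230 wells from P758, had 17 counts, or 133 CPM (exact 95% Poisson interval 77.4 to 213). That lay below the other plates of P758, at 248 and 249 CPM, and its upper bound of 213 CPM reached the lower bounds of both. The wells were digested with different ribonucleases at different concentrations, and which well received which was not used here. The Sca-1-negative plate had 5 counts in 52 wells, or 288 CPM (93.4 to 671), a range that holds the levels of both ages. Its makeup differed from that of the deep animals. Langerhans markers summed to 12200 CPM, against 333 CPM in P60 and 375 CPM in P758. Basal markers summed to 20717 CPM, against 68750 and 50824 CPM. The old and young wells of this plate could not be told apart in the columns, so it gives no comparison of the ages.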

How the data were processed

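Deposited files hold the authors' counts of footprint reads per gene and well, as whole numbers. Per the submitters' processing notes, fastp, Bowtie2, STAR, UMI-tools and featureCounts were used with GRCm38.p6; the sources used here give neither their settings nor strand handling nor the positions counted. Cxcl14 and the gene lists were chosen with earlier results of these data known.

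Wells with at least 100 counts were kept and summed per animal. Per the series' design text there were 3 biological replicates per age, and plates are technical replicates. Fits used edgeR 4.0.16 in R 4.3.3 (TMM, robust quasi-likelihood, Benjamini-Hochberg at 0.05), with filterByExpr for all wells and a minimum of 50 counts per gene for keratin states, since filterByExpr had dropped Cxcl14 from the basal wells. The 5 keratins were left out of the keratin-state fits, which had the animal as a block because both states come from the same animal. The SE given with an edgeR fit is the absolute log2 difference divided by the square root of its F statistic. DESeq2 1.42.0 was an alternative. The planned permutation test of the interaction was not run, because P59 and P722 had 0 spinous counts. The fits were tested on simulated counts.

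Clusters came from scanpy 1.11.5 (Python 3.11.15) on 1500 genes, 15 components, 15 neighbours and Leiden resolution 1; no doublet caller was run, since each well received 1 sorted cell. Cluster names follow the best-scoring marker list, with a score of at least 0.25 and at least 3 markers, thresholds set after the clusters were seen. Residuals for correlations used a theta of 100. Named genes were the 10 most and 5 least correlated with Cxcl14 among genes of at least 200 counts in both animals, and list members of at least 20 counts; Cxcr4 and genes setting the scene in clusters were chosen after their values were seen. Intervals are exact at 95% (Poisson or Clopper-Pearson) and, like the floor of 3 counts, cover counting error only.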

Additional observations from a re-analysis of the deposited data

Results flagged for a closer look

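The log2 ratio of Cxcl14 in P758 over P60 was 0.37 in outer bulge-like wells and -1.79 in the Igfbp3-led wells of cluster 1. Both plates of P758 lay above the 3 plates of P60 in the first and below them in the second. This difference was not tested: the gene was chosen on the age contrast, and no young animal but P60 had outer bulge-like wells.

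Cxcl14 was also counted on the plates that no comparison used, at 133 CPM on the nuclease test plate and 288 CPM on the Sca-1-negative plate. Their intervals (77.4 to 213 and 93.4 to 671 CPM) overlapped that of the T cell-like wells (21.0 to 198 CPM). That interval rests on 4 counts, so the overlap does not decide whether either level exceeded background.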

How the results depend on the processing

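The basal over spinous difference of Cxcl14 kept its direction and its call in all 11 alternatives, from 2.56 (no replicate block) to 3.07 on the log2 scale, and from 2.64 to 3.00 with each animal left out. Genes called in that comparison numbered 1933 with edgeR, 955 with DESeq2, 1354 without the replicate block, 677 without P60 and 1116 without P758. The age difference over all wells stayed between -1.23 and -0.93 in 12 alternatives, and between -1.23 and -1.05 with an animal or plate left out. In 6 others (500 counts per well, without P662, P758 or P60, and without plate Old11 or Old7) the filter removed Cxcl14, so no value exists without either deep animal. With no filter 111 of 15873 genes were called, against 0 with it. In basal wells the age difference ranged from -1.07 to 0.51 with an animal left out. The interaction ranged from -5.55 (SE 7.27, without P60, which leaves P59 alone among the young and takes its spread from the old animals) to -0.49, and none was called; it called 4 genes with edgeR, 1 with DESeq2 and 0 to 6 in the other settings. The share of wells thinned to 500 counts was 9.43% in old and 6.17% in young animals, with 4 wells of P57 and 3 of P59. Of the 10 genes most like Cxcl14, 10 were shared with wells of at least 100 counts, 5 with Spearman correlation and 6 without outer bulge-like wells. The settings without outer bulge-like wells, the minimum of 50 counts and values not centred per plate were chosen after seeing the data. Plate numbers are shared by no 2 ages, so nothing pairs old with young animals.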
